A study of Mus musculus with 6 samples.

Results

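The platelet-derived growth factor (PDGF) genes examined here are 4 ligand genes, Pdgfa, Pdgfb, Pdgfc and Pdgfd, and 2 receptor genes, Pdgfra and Pdgfrb. They were chosen by symbol, and all 6 were present among the 18512 entries of the deposited count table. The libraries were labelled as NMuMG, an epithelial line from mouse mammary gland, and came from 3 groups with 2 biological replicates each. The first group received DMSO, the vehicle, and the second TGF-β at 5 ng/ml. The third received TGF-β at 5 ng/ml together with 50 uM 2APB (2-aminoethoxydiphenyl borate), a modulator of store-operated calcium entry. Cells of all groups were starved of serum for 4 h beforehand. The sources differ on timing, since one passage has cells treated for 24 h and another has them exposed to 2APB for 24 h ahead of TGF-β, so that the order of the 2 agents is not settled. The comparison with DMSO asks how the PDGF genes responded to TGF-β, an inducer of the epithelial-mesenchymal transition. The comparison of the treated groups asks how expression differed when 2APB was given with TGF-β. No group received 2APB alone, so its own effect and a changed response to TGF-β cannot be told apart.

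PDGFs are secreted dimers that act through receptor tyrosine kinases. PDGF-A and PDGF-B are cut into their active form inside the cell, while PDGF-C and PDGF-D leave the cell in a latent form and are cut outside it by proteases. PDGF receptor alpha responds to the A, B and C chains and PDGF receptor beta mainly to the B and D chains. Both receptors mark mesenchymal cells such as fibroblasts, pericytes and smooth muscle cells, whereas epithelia are typically a source of the ligands, and gain of PDGF signaling is a known feature of the epithelial-mesenchymal transition.

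Total counts ran from 71840570 to 79473182 per library, the 10 most abundant genes took 6.35% to 7.4% of them, and every deposited value was an even number. Of 5 epithelial markers, Krt8 (226934 counts or more in every library) and Krt18 were abundant and Cdh1 was at 35416 counts or more, but Epcam was at 158 counts or fewer. Krt19 went from 45904 and 40792 counts with DMSO to 12844 and 8458 with TGF-β, and to 1704 and 3488 with both agents. It was called lower in all 3 comparisons (highest FDR 0.0174), whereas Krt8 and Krt18 were called higher in all 3. With TGF-β against DMSO, Krt8 rose 1.58-fold and Krt18 rose 1.89-fold. Cdh1 and Epcam were called lower in the comparisons with DMSO and were not called between the treated groups. The genes Krt5 and Krt14, keratins of basal mammary epithelium, did not exceed 2 and 4 counts, and Elf5, a luminal transcription factor, did not exceed 18 (genes chosen after their values were seen). In contrast, all 6 hepatocyte markers were present in the DMSO libraries, with Alb (albumin) at 32124 and 27900 counts and Hnf4a, a hepatic transcription factor, at 43312 and 40626. The summed normalized count of this list was 111370 and 103690 in the DMSO libraries, 20656 and 15138 in the TGF-β libraries and 9103 and 12215 in the TGF-β+2APB libraries. These markers went against the mammary label, which is kept here only as the name the libraries carry. In the TGF-β+2APB group, replicate 2 stood apart from replicate 1 in all 4 leukocyte markers, with a summed normalized count of 2458 against 324.7. The other 4 libraries lay between 249 and 646.7. The PDGF results and the medians of the pathway lists on TGF-β+2APB are therefore also given without replicate 2. Over all genes tested, the median size of the log2 gap between replicates was 0.0655 with DMSO, 0.22 with TGF-β and 0.0965 with TGF-β+2APB. The SD of these gaps was 0.334, 0.567 and 0.78 in the same order.

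**Figure D1:**
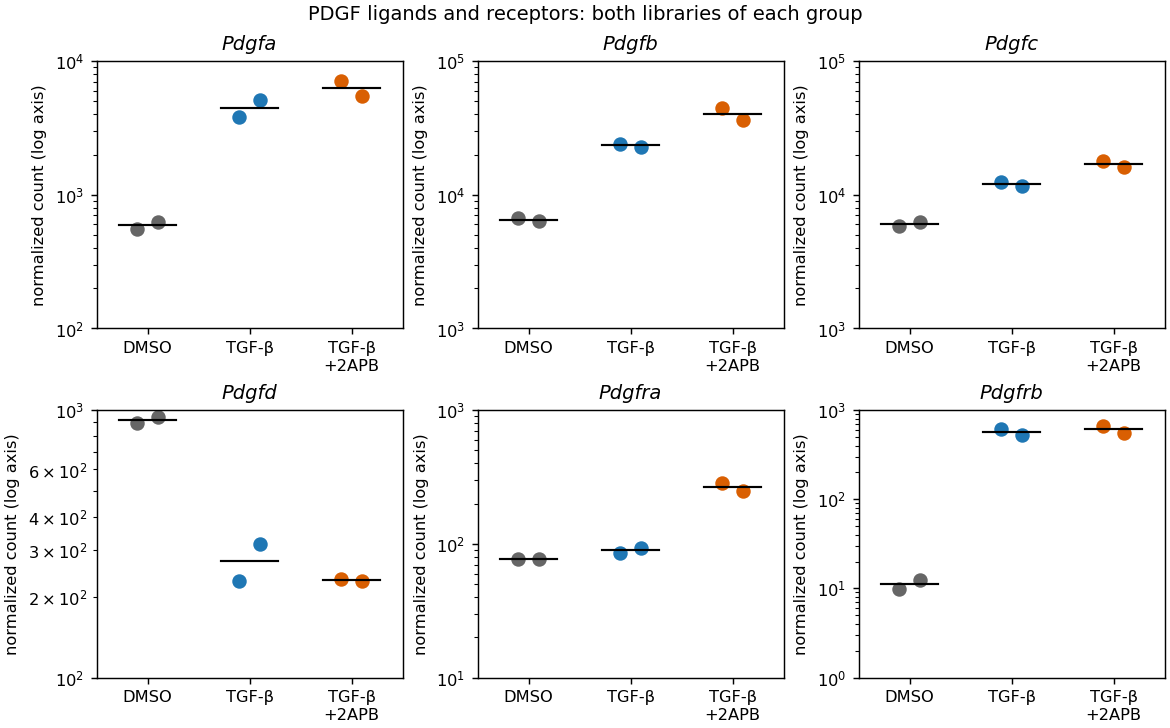
Normalized count (counts scaled by TMM factors to the mean library, log axis with its own range in each panel) of the 6 PDGF genes in both libraries of each group, with the group mean as a bar. Pdgfa, Pdgfb and Pdgfc stepped up from DMSO to TGF-β, Pdgfd stepped down, Pdgfrb rose from about 11.1 to 572.2, and Pdgfra stood apart only with TGF-β+2APB.

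All 6 genes passed the filter of a mean of at least 20 normalized counts, and they were tested with the other genes by edgeR's quasi-likelihood F-test. A gene was called differentially expressed where its FDR, adjusted by Benjamini and Hochberg's method over all genes tested, was 0.05 or less. With TGF-β, 4 of the 6 PDGF genes rose and 1 fell, for 5 called genes, where 41.5% of the 13353 genes tested were called (21.8% higher and 19.7% lower). For TGF-β+2APB relative to DMSO, 5 rose and 1 fell, so that all 6 were called, where 52.8% of the genes tested were called (25.6% higher and 27.2% lower). For TGF-β+2APB relative to TGF-β alone, 3 rose, Pdgfb, Pdgfc and Pdgfra, and none was called lower, where 17.5% of the genes tested were called (6.58% higher and 10.9% lower). The median log2 fold change of the 6 genes was 1.42, 2.21 and 0.49 in these comparisons, and that of all genes tested was -0.01, -0.0033 and -0.0037. The first 2 comparisons share the DMSO libraries and the last shares libraries with both.

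Among the ligands, Pdgfb encodes the B chain, the ligand accepted by both receptors. It lies on the minus strand of chromosome 15, at chr15:79995874-80014977 in GRCm38. Pdgfb was at 6746 and 6318 normalized counts in the DMSO libraries, 23917 and 22908 in the TGF-β libraries and 44330 and 36137 in the TGF-β+2APB libraries. The groups did not overlap, and the lowest library with TGF-β+2APB was above the highest with TGF-β. Pdgfb rose 3.58-fold with TGF-β (95% confidence interval (CI) 2.94 to 4.37, FDR 0.000205) and 6.16-fold with TGF-β+2APB (CI 5.03 to 7.55, FDR 5.1e-05). Addition of 2APB to TGF-β gave a 1.72-fold step, or a log2 fold change of 0.78 (SE 0.11, FDR 0.0109), and it was 0.92 (FDR 0.0141) without TGF-β+2APB replicate 2.

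Pdgfa, which encodes the A chain, a ligand of PDGF receptor alpha, lies on the minus strand at chr5:138976014-138997370. It was at 550.3 and 630.1 normalized counts in the DMSO libraries, 3818 and 5128 in the TGF-β libraries and 7098 and 5483 in the TGF-β+2APB libraries. Both treated groups lay far above DMSO, and they did not overlap each other, although the gap between them was smaller than the gap within either. The rise was 7.58-fold with TGF-β (CI 5.34 to 10.8, FDR 0.000287) and 10.7-fold with TGF-β+2APB (CI 7.46 to 15.2, FDR 0.000113), which placed Pdgfa at rank 281 of the 2914 genes called higher with TGF-β. Between the treated groups its log2 fold change was 0.49 (CI 0.03 to 0.95 before adjustment) and was not called (FDR 0.131). Over the fits with 1 treated library left out, its log2 fold change between the treated groups ran from 0.27 to 0.72. In the annotation 813 bases (26.1%) of the Pdgfa exons are shared with the antisense gene 6330403L08Rik, and the strand setting of the counting is not given in the sources used here.

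Pdgfc encodes the C chain, a latent ligand with a CUB domain that acts on PDGF receptor alpha once it is cut, and lies at chr3:81036416-81214040 on the plus strand. Pdgfc was at 5863 and 6231 normalized counts in the DMSO libraries, 12556 and 11660 in the TGF-β libraries and 17763 and 16082 in the TGF-β+2APB libraries. Again the 3 groups did not overlap, and each gap between groups was wider than the gaps within them. The rise was 2.002-fold with TGF-β (CI 1.72 to 2.33, FDR 0.000625) and 2.798-fold with TGF-β+2APB (CI 2.4 to 3.26, FDR 0.000104). The step between the treated groups was smaller, at a log2 fold change of 0.48 (SE 0.087, FDR 0.0187). That call was lost when either TGF-β+2APB library was left out, with 0.38 (FDR 0.171) without replicate 1 and 0.55 (FDR 0.0623) without replicate 2. It was also lost when only the 4 libraries compared were fitted (FDR 0.0671).

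Pdgfd was the one ligand gene that fell. It encodes the D chain, a latent CUB domain ligand of PDGF receptor beta, and lies at chr9:6168584-6378850 on the plus strand. Its normalized counts were 898.2 and 942.1 in the DMSO libraries, 229.9 and 315.4 in the TGF-β libraries and 233.6 and 228.9 in the TGF-β+2APB libraries. The DMSO libraries were the highest, and the 2 treated groups overlapped. Pdgfd was 3.38-fold lower with TGF-β (log2 fold change -1.75, SE 0.18, FDR 0.00103) and 3.98-fold lower with TGF-β+2APB (log2 fold change -1.99, SE 0.18, FDR 0.000418). Between the treated groups the log2 fold change was -0.24, with a CI from -0.68 to 0.20 (FDR 0.4).

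Pdgfrb, the gene of PDGF receptor beta on chromosome 18, had the largest change from DMSO of the 6. It was at 9.83 and 12.4 normalized counts in the DMSO libraries (10 and 12 deposited counts), 621.4 and 522.9 in the TGF-β libraries and 663.2 and 554.4 in the TGF-β+2APB libraries. All 4 treated libraries were far above both DMSO libraries, and the treated groups overlapped. The rise was 51.03-fold with TGF-β (CI 34.4 to 75.7, FDR 6.67e-05) and 54.3-fold with TGF-β+2APB (CI 36.5 to 80.6, FDR 3.8e-05), and Pdgfrb stood at rank 79 of the 2914 genes called higher with TGF-β. No difference was called between the treated groups (log2 fold change 0.09, CI -0.33 to 0.51, FDR 0.749).

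Pdgfra, the gene of PDGF receptor alpha, lies on the plus strand at chr5:75152292-75198215, and it did not follow Pdgfrb. It was at 76.7 and 76.4 normalized counts in the DMSO libraries, 85.7 and 93.4 in the TGF-β libraries and 283.1 and 248.6 in the TGF-β+2APB libraries. The DMSO and TGF-β libraries lay close together, and both TGF-β+2APB libraries were above them. With TGF-β the log2 fold change of 0.23 (CI -0.29 to 0.74) was not called (FDR 0.431), so that a rise of up to 1.68-fold remained within the interval. With TGF-β+2APB Pdgfra rose 3.47-fold against DMSO (CI 2.41 to 4.99, FDR 0.00109) and 2.97-fold against TGF-β (CI 2.07 to 4.25, FDR 0.00904). The last value rested on neither replicate alone, with log2 fold changes of 1.44 (FDR 0.0309) without TGF-β+2APB replicate 1 and 1.66 (FDR 0.0157) without replicate 2. Pdgfra was the only one of the 6 genes whose log2 fold change between the treated groups reached 1.

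**Figure D2:**
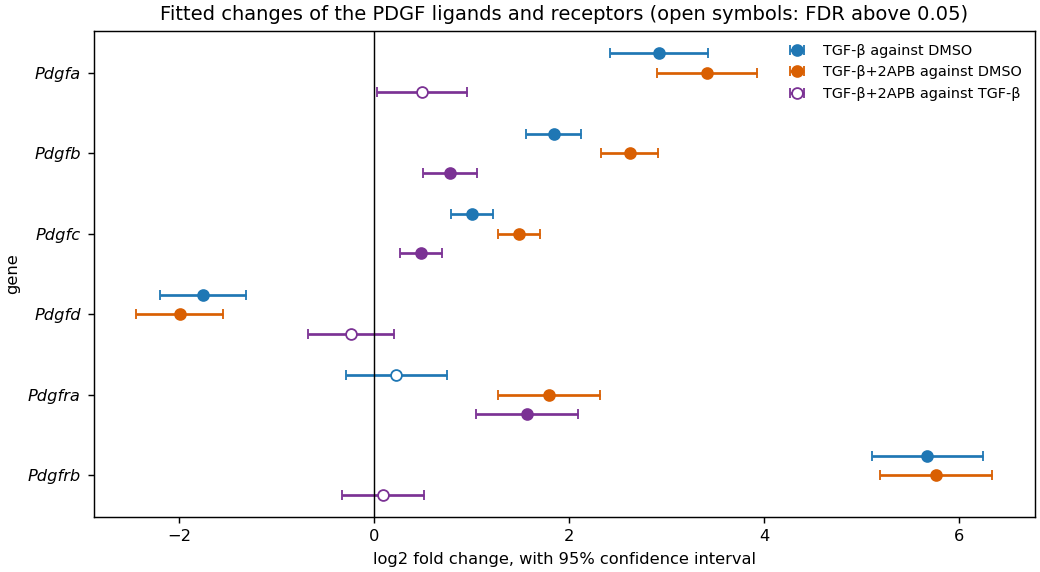
Log2 fold change (horizontal axis) with its 95% confidence interval for the 6 PDGF genes (vertical axis) in the 3 comparisons, with filled symbols for an FDR of 0.05 or less in edgeR's test. The interval of Pdgfrb starts at 5.1 with TGF-β, that of Pdgfra includes 0 with TGF-β and starts at 1.05 between the treated groups.

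Markers of cell types that carry PDGF receptors were counted beside these results. The summed normalized count of the 6 fibroblast markers in the table was 68.8 and 86.8 in the DMSO libraries, 1636 and 1741 in the TGF-β libraries and 2164 and 1673 in the TGF-β+2APB libraries. Col1a1 made up nearly all of it, since Col1a2, Col3a1, Dcn, Thy1 and Fap did not exceed 12 counts in any library. The sum of the 8 pericyte and smooth muscle markers was 310.6 and 309.9 in the DMSO libraries, 878.5 and 817.6 in the TGF-β libraries and 1717 and 1148 in the TGF-β+2APB libraries. Of its 5 tested genes, Mcam (4.2-fold) and Acta2 (5.12-fold, FDR 0.0169) were called higher with TGF-β. Des, Notch3 and Abcc9 were not called there, with Des at a log2 fold change of -1.58 (FDR 0.0564). With both agents relative to DMSO, Mcam, Acta2 and Notch3 were called higher and Des 4.88-fold lower (FDR 0.0152), and Abcc9 was not called (FDR 0.532). Between the treated groups Notch3 alone was called, 4.35-fold higher (FDR 0.015), from 12 and 14 counts to 60 and 56, the same 2 comparisons in which Pdgfra was called. The calls in this list stood against 41.5%, 52.8% and 17.5% of all genes tested in the 3 comparisons. The pericyte markers Rgs5, Cspg4 and Kcnj8 did not exceed 10, 16 and 12 counts, and Rgs5 and Cspg4 were at 0 in 1 or more DMSO libraries. The sum of the 4 endothelial markers stayed at 49.3 or less, with Tek and Emcn at 0 in most libraries. In these bulk libraries fewer or more cells of a type and a different RNA level per cell cannot be told apart. All 6 PDGF genes were lower in TGF-β+2APB replicate 2, the library with more leukocyte transcripts, than in replicate 1, by 0.03 (Pdgfd) to 0.37 (Pdgfa) on the log2 scale, and the part of these transcripts in the results was not tested. Without that replicate all 6 PDGF genes kept their direction for TGF-β+2APB relative to DMSO. The log2 fold changes were 3.61 for Pdgfa, 2.78 for Pdgfb, 1.58 for Pdgfc, -1.96 for Pdgfd, 1.91 for Pdgfra and 5.91 for Pdgfrb. Relative to TGF-β, the log2 fold change without it was 0.92 for Pdgfb, 1.66 for Pdgfra, 0.55 for Pdgfc and 0.67 for Pdgfa.

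Levels of different genes were compared as a density, in TMM-scaled CPM (counts relative to the library total) per kb of exon. With DMSO the order was Pdgfb (20.5 ± 0.951, SD, n = 2), Pdgfc (15.5 ± 0.669), Pdgfd (3.82 ± 0.129), Pdgfa (2.48 ± 0.237), Pdgfra (0.0999 ± 0.0002) and Pdgfrb (0.0265 ± 0.0043). No 2 neighbors in this order overlapped between libraries, but with the longest transcript as length Pdgfd (3.75 and 3.94) and Pdgfa (3.5 and 4.002) did. With TGF-β the order was Pdgfb (73.6 ± 2.24), Pdgfc (31.1 ± 1.63), Pdgfa (18.8 ± 3.89), Pdgfrb (1.37 ± 0.166), Pdgfd (1.13 ± 0.251) and Pdgfra (0.117 ± 0.0071), and the neighbors Pdgfrb and Pdgfd overlapped. With TGF-β+2APB the same order held without overlap, from Pdgfb (126.5 ± 18.2), Pdgfc (43.5 ± 3.06) and Pdgfa (26.4 ± 4.79) down to Pdgfrb (1.45 ± 0.184), Pdgfd (0.959 ± 0.0139) and Pdgfra (0.347 ± 0.0319). Pdgfb was denser than 86.1% of the 17519 genes with a known length with DMSO and than 98.5% with TGF-β+2APB. Pdgfrb moved from above 19.6% of these genes with DMSO to above 45.6% with TGF-β, and Pdgfra was still below most genes with TGF-β+2APB (above 36.4%).

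The ligands far exceeded the receptors in each group. The summed ligand density was 42.3 and 42.4 in the DMSO libraries, 124.5 and 124.8 in the TGF-β libraries and 215.8 and 178.9 in the TGF-β+2APB libraries. The summed receptor density was 0.124 and 0.129 in the DMSO libraries, 1.6 and 1.37 in the TGF-β libraries and 1.95 and 1.65 in the TGF-β+2APB libraries. The group means differed from DMSO by 2.94-fold (TGF-β) and 4.66-fold (TGF-β+2APB) for ligands and by 11.7-fold and 14.2-fold for receptors. The ratio of ligand to receptor density was 335.1 in the DMSO group, 84.02 in the TGF-β group and 109.6 in the TGF-β+2APB group. With DMSO it rested on few receptor counts, 78 and 74 for Pdgfra and 10 and 12 for Pdgfrb. With the longest transcript as length, the mean ligand and receptor densities were 59.1 and 0.173 (DMSO), 178.6 and 1.55 (TGF-β) and 282.6 and 1.98 (TGF-β+2APB). Within the receptors, Pdgfra held 79.1% ± 2.74 (SD, n = 2) of the density in the DMSO group, 7.95% ± 1.33 in the TGF-β group and 19.3% ± 0.542 in the TGF-β+2APB group. Within the ligands, Pdgfb went from 48.5% ± 2.34 to 59.1% ± 1.92 and 64.0% ± 0.767, Pdgfc from 36.7% ± 1.51 to 24.98% ± 1.36 and 22.1% ± 1.38, and Pdgfd from 9.01% ± 0.286 to 0.907% ± 0.199 and 0.49% ± 0.0577. Pdgfa went from 5.84% ± 0.547 to 15.05% ± 3.09 and 13.3% ± 0.666, and its 2 treated groups overlapped. These shares describe 2 libraries per group and were not tested.

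**Figure D3:**
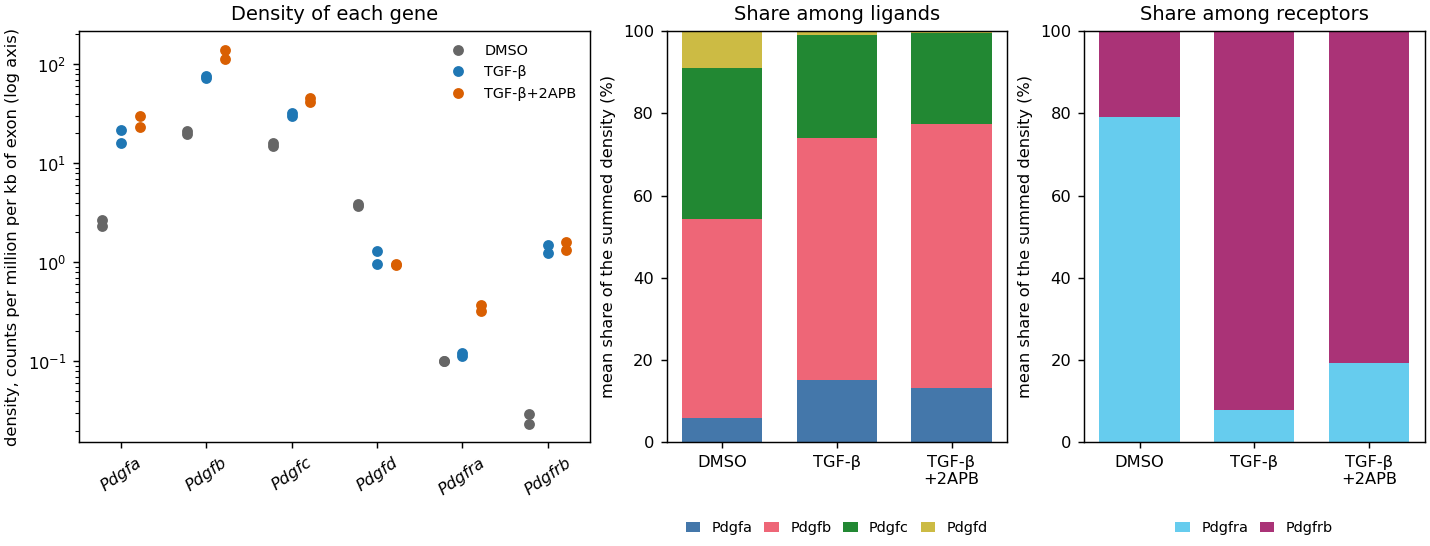
Left, density in CPM per kb of exon (log axis) of each PDGF gene, with a point for each library. Middle and right, mean share (%) of each gene in the summed density of the 4 ligands and the 2 receptors by group, where Pdgfra makes up 79.1% of the receptor density with DMSO and 7.95% with TGF-β.

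Sequences before the start sites of the genes are shown to set the promoters of ligands that moved in opposite directions, and of the receptor gene called higher only in the group with 2APB, side by side. RefSeq's promoter table (GRCm38.p6) was matched for Pdgfa, with 2 start sites, and for Pdgfc, Pdgfd and Pdgfra. The 250 bases before the start were searched on both strands for the SP1 box GGGCGG, the SMAD element CAGACA, the AP-1 site TGACTCA and the E-box CACCTG, none of which overlapped another in these windows. Each window is written 5′ to 3′ in the direction of transcription, and capitals mark a motif. The windows are Pdgfa at chr5:138994945-138995194 on the minus strand, Pdgfc at chr3:81036166-81036415, Pdgfd at chr9:6168236-6168485 and Pdgfra at chr5:75152001-75152250, the last 3 on the plus strand.
Pdgfa: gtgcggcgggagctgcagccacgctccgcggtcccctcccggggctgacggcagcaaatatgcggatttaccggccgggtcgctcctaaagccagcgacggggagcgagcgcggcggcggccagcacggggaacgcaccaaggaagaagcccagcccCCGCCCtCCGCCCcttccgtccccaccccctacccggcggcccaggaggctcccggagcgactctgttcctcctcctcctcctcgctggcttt
Pdgfc: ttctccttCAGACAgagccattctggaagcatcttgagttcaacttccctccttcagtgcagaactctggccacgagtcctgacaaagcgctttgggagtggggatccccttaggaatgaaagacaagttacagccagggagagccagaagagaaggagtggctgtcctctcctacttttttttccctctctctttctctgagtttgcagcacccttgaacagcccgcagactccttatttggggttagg
Pdgfd: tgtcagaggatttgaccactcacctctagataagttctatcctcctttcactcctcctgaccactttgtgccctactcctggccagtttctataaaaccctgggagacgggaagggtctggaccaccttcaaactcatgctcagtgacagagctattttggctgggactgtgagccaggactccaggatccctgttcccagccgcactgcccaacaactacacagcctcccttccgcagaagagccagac
Pdgfra: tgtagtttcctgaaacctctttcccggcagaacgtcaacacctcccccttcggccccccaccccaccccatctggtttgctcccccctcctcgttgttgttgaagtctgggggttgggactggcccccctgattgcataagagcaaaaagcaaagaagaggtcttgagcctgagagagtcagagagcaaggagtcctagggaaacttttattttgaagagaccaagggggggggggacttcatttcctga
The Pdgfa window held 2 SP1 boxes on the minus orientation, 93 and 86 bases before the start, and its other start site, with the window chr5:138994282-138994531, held 1 SP1 box 60 bases before the start. The Pdgfc window held 1 SMAD element 242 bases before the start. None of the 4 motifs was in the windows of Pdgfd and Pdgfra. No GENCODE transcript starts at the sites behind these windows, whereas at least 1 does at those of Pdgfa and Pdgfc. Of all 32851 promoter windows of this length, 32.7% held the SP1 box, 17.1% the SMAD element, 4.46% the AP-1 site and 17.2% the E-box. GC content was 72.4% in the Pdgfa window shown, 50.8% in that of Pdgfc, 53.6% in that of Pdgfd and 54.4% in that of Pdgfra, against a median of 52.4% over all windows. These are matches of letters and do not show binding.

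The pattern of each PDGF gene over the 6 libraries was compared with that of all other genes tested by Pearson's r of log2 normalized counts. The closest genes were Jam2, Prr33 and 4930486L24Rik for Pdgfa, Kctd11, Slc20a1 and Lrrc32 for Pdgfb, and B4galt1, Ttc39c and Tns1 for Pdgfc. For Pdgfd they were Dsg1c, Kng1 and Zfr2, for Pdgfra Col15a1, Ptpn21 and Fbrsl1, and for Pdgfrb Ccnd1, Lsm6 and Col5a1. Every one of these had an r of 0.996 or more, but likeness to such a stepwise pattern was common, since between 217 (Pdgfra) and 1491 (Pdgfb) of the 13352 other genes had an r above 0.95. Col15a1, a collagen gene, was at 803.9 and 832.6 normalized counts in the DMSO libraries, 892.2 and 921.4 in the TGF-β libraries and 1899 and 1669 in the TGF-β+2APB libraries. Like Pdgfra, it stood apart in the TGF-β+2APB libraries. Ccnd1, the gene of cyclin D1, was at 11917 and 13099 with DMSO and between 60491 and 65323 in the 4 treated libraries, a step without overlap as for Pdgfrb. The 6 libraries form 3 groups, so that these values describe a shared step between groups.

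Related ligands and receptors, the VEGF family and the type III receptor kinases, had 12 of 14 genes that could be tested. With TGF-β 4 rose and 2 fell, with both agents relative to DMSO 5 rose and 1 fell, and between the treated groups 3 rose and 1 fell, with a list median of 0.03, 0.61 and 0.17 on the log2 scale. The 6, 6 and 4 called of 12 stood against 41.5%, 52.8% and 17.5% of all genes tested. These counts changed when a TGF-β+2APB library was left out, as did the number called over all genes tested. Without TGF-β+2APB replicate 2, the list median was 0.53 relative to DMSO and 0.23 between the treated groups. Csf1r, which is also one of the leukocyte markers, had the largest log2 fold change between the treated groups (3.34, FDR 0.0529) and was at 168.3 and 968.7 normalized counts in the TGF-β+2APB libraries. Nrp2, a co-receptor of VEGF-C, rose by 3.5 on the log2 scale with TGF-β (SE 0.11, FDR 3.91e-05) and rose further with 2APB by 0.54 (FDR 0.0211). Vegfc itself, a lymphangiogenic ligand, rose by 2.01 with TGF-β (FDR 0.000128) and was at 0.09 between the treated groups (FDR 0.595). Kit, the stem cell factor receptor, fell by 3.09 on the log2 scale with TGF-β (SE 0.72, FDR 0.0188), from 112 and 92 counts to 18 and 6. Vegfa, like Pdgfra, was not called with TGF-β (-0.08, FDR 0.583) and rose with 2APB against TGF-β by 0.83 (FDR 0.00902). With TGF-β Vegfb fell by 0.66 on the log2 scale (FDR 0.0188) and Flt4, the VEGF-C receptor, rose by 1.26 (FDR 0.000882), while between the treated groups Flt4 fell by 0.69 (FDR 0.0179). Vegfb was called higher between the treated groups, by 0.63 (FDR 0.0449), and was not called there without TGF-β+2APB replicate 2 (0.52, FDR 0.198).

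Of the genes for ligand processing and binding, 8 of the 10 listed were tested, and 4 rose and 1 fell with TGF-β, 4 rose and 2 fell with both agents relative to DMSO, and 3 rose and 2 fell between the treated groups. St14 encodes matriptase, a membrane protease that can cut PDGF-D. It was at 4 and 2 counts in the DMSO libraries, 44 and 38 in the TGF-β libraries and 134 and 156 in the TGF-β+2APB libraries, and was called higher in all 3 comparisons (highest FDR 0.018). Plau, the urokinase gene, whose product also cuts PDGF-D, rose by a log2 fold change of 2.41 with TGF-β (FDR 0.000306) and by another 0.76 with 2APB (FDR 0.0282). Plat, whose product tPA activates PDGF-C, fell by 0.52 on the log2 scale between the treated groups (FDR 0.0214) and was at -0.29 with TGF-β against DMSO (FDR 0.0652). Pcsk6, a proprotein convertase, fell by 1.97 on the log2 scale between the treated groups (FDR 0.00825). Furin, another convertase, rose by 1.07 with TGF-β (FDR 0.000491) and by 1.4 with both agents relative to DMSO (FDR 0.000124). Between the treated groups Furin was not called (0.33, FDR 0.0526). Lrp1, a co-receptor of PDGF receptor beta, fell by 0.67 on the log2 scale with TGF-β (FDR 0.00466) and was higher by 1.03 with 2APB than with TGF-β alone (FDR 0.00501). The list medians were 0.13, 0.22 and 0.13, and the 5, 6 and 5 called of 8 stood against 41.5%, 52.8% and 17.5% of all genes tested. These counts changed when a TGF-β+2APB library was left out, as did the number called over all genes tested. The list median without TGF-β+2APB replicate 2 was 0.2 relative to DMSO and 0.15 between the treated groups. In the latter comparison Plat (log2 fold change -0.47) and Plau (0.87) were then no longer called.

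Of 28 genes of receptor-proximal signaling, 8 were called in each comparison with DMSO and 4 between the treated groups, against 41.5%, 52.8% and 17.5% of all genes tested. The counts of this list changed when a library was left out, as did the number called over all genes tested. Without TGF-β+2APB replicate 2, the list median was 0.17 relative to DMSO and 0.04 between the treated groups on the log2 scale. In the fit of all libraries, with TGF-β 4 rose and 4 fell, with both agents relative to DMSO 4 rose and 4 fell, and between the treated groups 1 rose and 3 fell, with list medians of 0.08, 0.12 and 0.02. Pik3cb, a catalytic subunit of phosphoinositide 3-kinase, rose by 1.16 with TGF-β (FDR 0.000279) and by 0.57 between the treated groups (FDR 0.01). Src, a kinase recruited to the receptors, rose by 0.61 with TGF-β (FDR 0.00353), and the adaptor gene Shc1 rose by 0.28 (FDR 0.0495). Shc1 fell by 0.45 on the log2 scale between the treated groups (FDR 0.023), a call not made without TGF-β+2APB replicate 2 (FDR 0.121). Of the transcription factors activated by kinases, Stat3 fell by 0.67 (FDR 0.00782) and Stat5a fell by 1.2 (FDR 0.000933) on the log2 scale with TGF-β, and with 2APB Stat3 fell by 1.12 more (FDR 0.0059).

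Of 10 tested genes whose products attenuate the receptors or their signals, 1 rose and 3 fell with TGF-β, 1 rose and 5 fell with both agents relative to DMSO, and 1 rose and 3 fell between the treated groups, with list medians of 0.01, -0.19 and -0.12. These 4, 6 and 4 called genes stood against 41.5%, 52.8% and 17.5% of all genes tested. These counts changed when a library was left out, as did the number called over all genes tested. The list median without TGF-β+2APB replicate 2 was -0.18 relative to DMSO and -0.11 between the treated groups. The gene that rose in each was Cblb, a ubiquitin ligase, by a log2 fold change of 0.84 with TGF-β (FDR 0.000625) and 0.45 between the treated groups (FDR 0.0144, and 0.0509 without TGF-β+2APB replicate 2). Ptprj, a receptor phosphatase, fell by 0.56 with TGF-β (FDR 0.00748) and fell by 0.87 between the treated groups (FDR 0.00687) on the log2 scale. Slc9a3r1, a scaffold protein that binds PDGF receptors, fell by 1.46 with TGF-β (FDR 0.000812) and fell by 0.79 between the treated groups (FDR 0.0173).

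Among 14 growth factor-responsive genes tested, 3 rose and 6 fell with TGF-β, 3 rose and 9 fell with both agents relative to DMSO, and 2 rose and 5 fell between the treated groups, with list medians of -0.44, -0.96 and -0.71. Of all genes tested, 21.8% were called higher and 19.7% lower in the first of these comparisons, 25.6% and 27.2% in the second, and 6.58% and 10.9% in the last. Without TGF-β+2APB replicate 2, the list median was -1.09 relative to DMSO and -0.89 between the treated groups. Of the immediate early genes, Fos fell by 4.07 (SE 0.5, FDR 0.00196) and Egr1 fell by 2.78 (SE 0.32, FDR 0.00163) on the log2 scale with TGF-β. Spry4, a feedback inhibitor of receptor tyrosine kinase signaling, fell by 0.91 with TGF-β (FDR 0.00478) and fell by 1.74 between the treated groups (FDR 0.00385), and the chemokine gene Cxcl1 fell by 2.06 (FDR 0.00593) and fell by 1.56 (FDR 0.0351) in the same comparisons. Myc rose by 1.21 with TGF-β (FDR 0.000131), and Odc1, the gene of ornithine decarboxylase, rose by 0.72 with TGF-β (FDR 0.00125) and 0.63 between the treated groups (FDR 0.00747). Egr3 fell by 2.36 with TGF-β (FDR 0.002) and rose by 1.25 between the treated groups (FDR 0.0371, and 0.11 without TGF-β+2APB replicate 2). These genes respond to many stimuli, and the lists were chosen with earlier results of these data known.

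**Figure D4:**
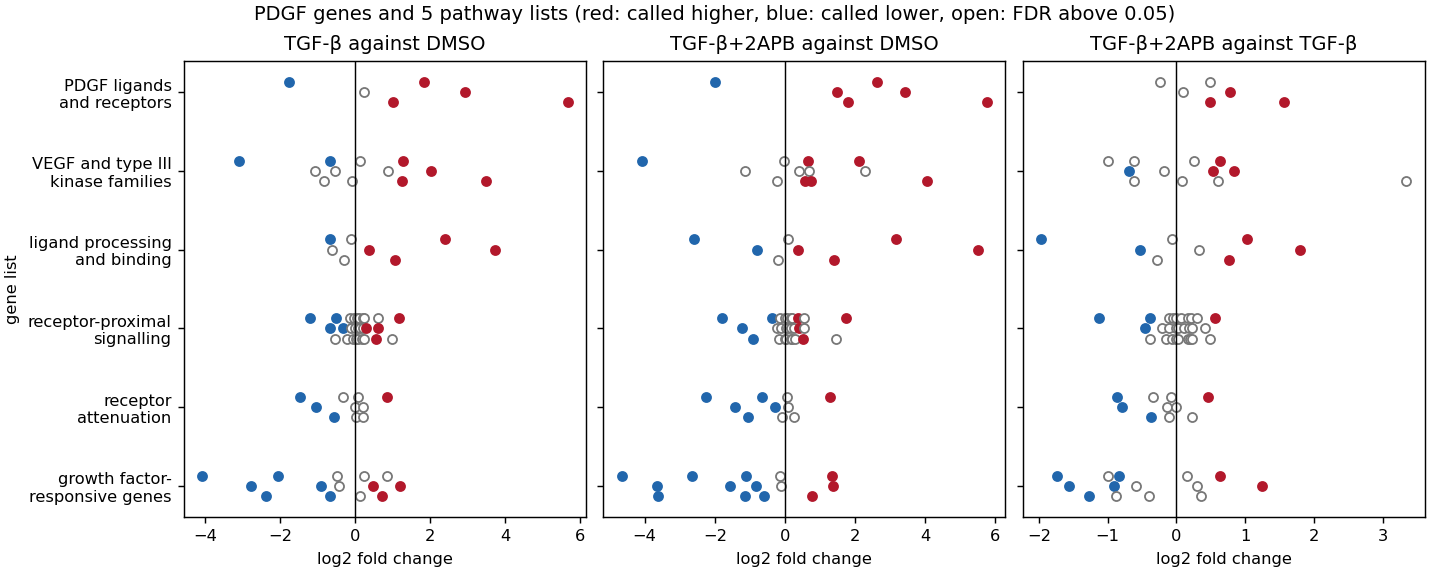
Log2 fold change (horizontal axis) of each tested gene of the PDGF set and of 5 pathway lists (rows) in the 3 comparisons, with red for called higher, blue for called lower and open symbols for an FDR above 0.05 in edgeR's test. Receptor-proximal signaling genes gather near 0 (median 0.08 with TGF-β), and growth factor-responsive genes spread widely on both sides of 0, from -4.07 to 1.21 with TGF-β (median -0.44).

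The settings of the fit left the comparisons with DMSO in place for the PDGF genes and mattered between the treated groups. In 14 alternative fits of each comparison with DMSO, every PDGF gene kept its direction and its call. Between the treated groups, Pdgfb was called in all 14 alternative fits (log2 fold change 0.6 to 0.92) and Pdgfra in all 14 (1.44 to 1.66), Pdgfc in 11 and Pdgfa in 2.

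**Figure D5:**
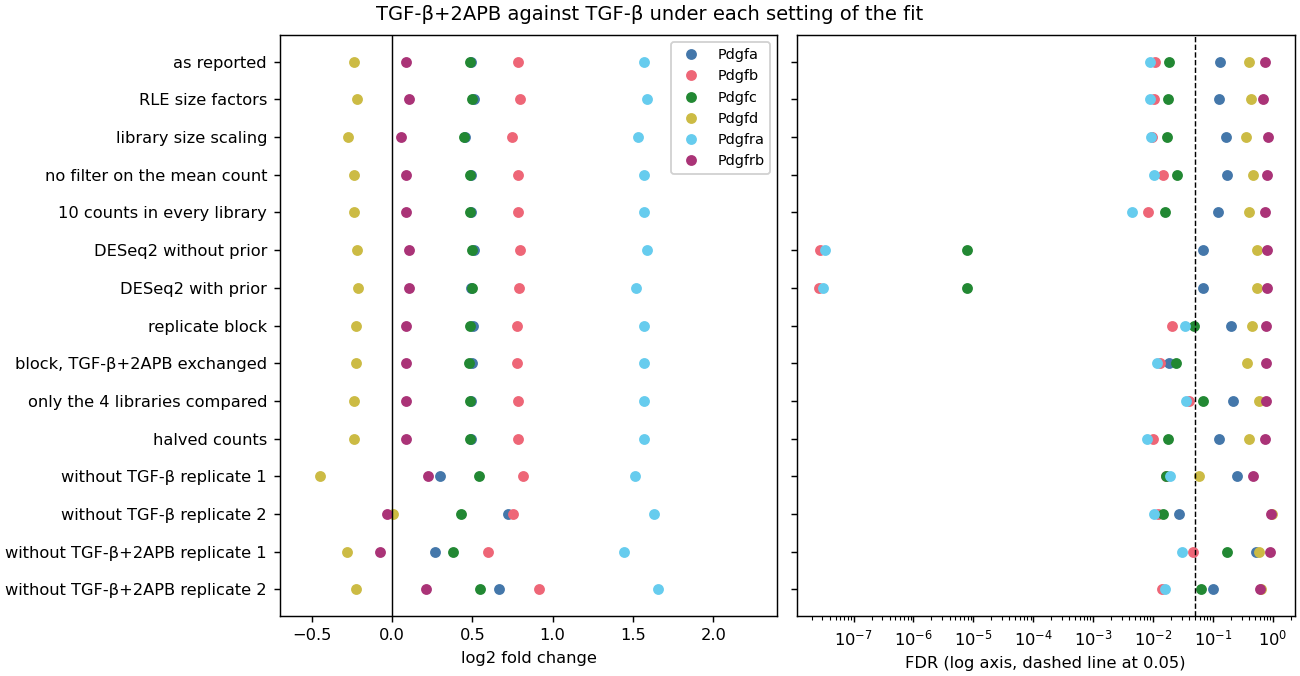
Log2 fold change (left) and FDR (right, log axis, with a dashed line at 0.05) of the 6 PDGF genes for TGF-β+2APB relative to TGF-β under each setting of the fit. Pdgfra keeps a log2 fold change of 1.44 or more in every fit, whereas the FDR of Pdgfc crosses the line in 3 of the alternatives.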

How the data were processed

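RNA was sequenced from 2 biological replicates of each of 3 groups. The submitters' processing notes name FastQC 0.11.2, TopHat2 2.0.13, DESeq2 1.6.1 and mm10, while the study's methods name hg19, and the gene symbols are mouse symbols. The authors used featureCounts to count reads per gene, and the deposited values were used here as raw counts. All were even, and the smallest above 0 was 2. Library totals were above the average number of reads per sample that the study reports, and the reason was not tested. The strand setting is not given in the sources used here. In R 4.3.3, edgeR 4.0.16 fitted the 3 groups in 1 quasi-likelihood model with TMM scaling, without a block, over the 13353 genes whose mean normalized count was 20 or more. Each standard error is the log2 change over the root of the F statistic. The biological coefficient of variation was 17.4%. With 2 replicates, tests borrow the spread of all groups. Exon lengths came from GENCODE M21 (GRCm38), matched by symbol for 17519 entries (94.6%). DESeq2 1.42.0, limma 3.58.1, Python 3.11.15, pandas 2.3.3, scipy 1.17.1 and matplotlib 3.10.9 served the alternatives, tables and plots. The fitting was tested on simulated data. The PDGF genes and all lists were chosen with earlier results of these data known. Named pathway genes were the largest 2 rises and 2 falls called per list and comparison whose sign held in both pairs of same-numbered replicates. Csf1r and Furin were named outside this rule. The values of 1 gene within this rule are not reported here. Alternatives were RLE or library size scaling, no count filter, at least 10 counts in every library, DESeq2 with and without its prior, a replicate block, fits of 4 libraries, halved counts, an FDR of 0.01, a minimum log2 change of 1, each library left out, transcript length and Spearman's rho.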

Additional observations from a re-analysis of the deposited data

How the results depend on the processing

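Between TGF-β+2APB and TGF-β, 1 PDGF gene (Pdgfra) was called at an FDR of 0.01 and 1 with a minimum log2 change of 1, against 3 as reported, 4 without TGF-β replicate 2 and 2 without either TGF-β+2APB replicate. Leaving out TGF-β replicate 2 turned Pdgfd to 0.0087 (range over libraries left out -0.45 to 0.0087) and Pdgfrb to -0.029 (range -0.077 to 0.22), and Pdgfrb was also reversed without TGF-β+2APB replicate 1 (-0.077). None of these values was called, and the cause was not tested. Of the recounts of the pathway lists under the alternatives, 40 moved by over 1.5 times and 200 did not.

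Over all genes, 5548, 7044 and 2334 were called for TGF-β against DMSO, TGF-β+2APB against DMSO and TGF-β+2APB against TGF-β. In the first comparison the calls fell to 2753 without DMSO replicate 1, 2895 without DMSO replicate 2, 3369 at an FDR of 0.01 and 2117 with a minimum log2 change of 1. In the second they fell to 4355 and 4435 without DMSO replicates 1 and 2 and to 3029 with a minimum log2 change of 1. In the last they were 860 with 4 libraries, 3646 and 3597 by DESeq2 without and with its prior, 3793 and 5405 without TGF-β replicates 1 and 2, 986 and 1260 without TGF-β+2APB replicates 1 and 2, 601 at an FDR of 0.01 and 840 with a minimum log2 change of 1.

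The labels number the replicates alike in each group. The r of the replicate differences was 0.148 for DMSO and TGF-β, -0.458 for DMSO and TGF-β+2APB and -0.255 for TGF-β and TGF-β+2APB. The TGF-β+2APB libraries thus tended to deviate opposite to the same-numbered libraries of the other groups. With the replicate number as a block, 5, 6 and 3 PDGF genes were called in the 3 comparisons, with Pdgfc at an FDR of 0.0479 and Pdgfra at 0.0337 between the treated groups, and 4737, 6358 and 1342 genes over all. A block with the TGF-β+2APB numbers exchanged, added after seeing the data, gave 5706, 7232 and 2465 genes. Densities by the longest transcript moved by more than the replicate SD in 12 of 18 cases. Depth limited Pdgfrb with DMSO, at 10 and 12 counts, and the number of reads behind these even values is not known. Counts of reads are not independent molecules.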
